A study of Mus musculus with 12 samples.

Results

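The 41 interferon-stimulated genes described here were chosen as a named list of genes, out of 33696 genes in the deposited matrices, and all 41 were found. Of these, 40 matched by symbol, and Ddx58 matched by its gene ID (ENSMUSG00000040296), under which the files carry the newer name Rigi. The genes were followed in γδ T cells sorted from spleen, in γδ T cells sorted from thymus, and in DN1 to DN3 thymocytes sorted as 1 population, called DN1-DN3 cells here, which are the early precursors of T cells that lack CD4 and CD8. The cells came from adult mice labelled WT or GFI1 KO, the latter with a germline deletion of the gene for the transcription repressor GFI1, on a C57BL6/J background. Transcripts were counted with 10x Genomics Single Cell 3' v3 chemistry as UMIs (unique molecular identifiers, each tagging 1 captured RNA molecule). Cells of both genotypes were tagged with different hashtag antibodies and run in 1 pool, which was split into 1 library labelled WT and 1 labelled KO. Each of the 3 compartments had 2 such pools, which gives 12 libraries with 2 per genotype and compartment. Thymic γδ T cells and DN1-DN3 cells were taken from the same mice, and cells carrying B cell, myeloid or NK cell surface markers were depleted before sorting. The number of mice behind a library was not given in the sources used here, so the spread between libraries may be partly technical.

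Interferons are secreted proteins by which cells answer viruses and other pathogens. Type I interferons bind the receptor pair IFNAR1 and IFNAR2, and interferon γ binds IFNGR1 and IFNGR2. Both receptors signal through JAK kinases to STAT proteins. A complex of STAT proteins with IRF9 binds a promoter sequence called the interferon-stimulated response element (ISRE), and STAT dimers bind another called the γ-activated site (GAS). Many of the genes so induced encode proteins that sense or block viral RNA, and some, such as Usp18, feed back on the receptor. T cells keep a low level of these transcripts without infection, and it rises during thymic maturation.

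The promoter letters are given first, because ISRE and GAS are known elements of interferon-induced genes. RefSeq promoter windows of assembly GRCm38.p6, from 250 bases before to 50 bases after the start of a gene, were on hand for 30 of the 41 members; the other 11 are Ifi204, Ifi27l2a, Oas2, Mx1, Mx2, Rtp4, Usp18, Zbp1, Dhx58, Parp14 and Ly6e. The letters GAAANNGAAA, searched on both strands as the core of an ISRE, were present in the window of 20 of the 30 members (66.7%), against 1079 of all 27025 genes in the table (3.99%). At least 2 matches, which may overlap, were found in 8 members and in 72 of all genes. The palindromic letters TTCNNNGAA, as a GAS, were present in 8 of the 30 members (26.7%) and in 2582 of all genes (9.55%). A match of letters is a description and not a binding site. The windows of 7 members are shown because these genes stand for the main responses below. Ifit1, Ifit3, Isg15 and Oas1a carried ISRE letters and were lower in spleen, Igtp was called higher in all 3 compartments (in spleen with all 4 libraries only), and Gbp2 and Irf1 moved in opposite directions in spleen and thymus. Each line gives 170 bases that end at the base before the annotated start, 5′ to 3′ on the gene's strand, with ISRE and GAS letters in capitals. The capitals in Isg15 are 3 overlapping ISRE matches, those in Irf1 are GAS letters, and those in Igtp are a GAS match followed by an ISRE match. In Oas1a the run near the middle is a GAS match and the run near the end holds 2 overlapping ISRE matches.
Ifit1, chr19:34640719-34640888, + strand: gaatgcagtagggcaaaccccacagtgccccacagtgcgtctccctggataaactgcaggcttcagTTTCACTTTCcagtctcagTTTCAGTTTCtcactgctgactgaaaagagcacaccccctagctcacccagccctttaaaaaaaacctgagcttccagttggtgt
Ifit3, chr19:34583359-34583528, + strand: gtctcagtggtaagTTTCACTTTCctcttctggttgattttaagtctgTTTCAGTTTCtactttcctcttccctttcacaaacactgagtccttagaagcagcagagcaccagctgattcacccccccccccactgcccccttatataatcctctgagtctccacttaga
Isg15, chr4:156200819-156200988, - strand: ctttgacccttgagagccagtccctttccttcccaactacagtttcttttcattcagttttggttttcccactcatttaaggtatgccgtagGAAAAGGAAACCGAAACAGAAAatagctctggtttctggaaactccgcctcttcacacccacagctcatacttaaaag
Oas1a, chr5:120907526-120907695, - strand: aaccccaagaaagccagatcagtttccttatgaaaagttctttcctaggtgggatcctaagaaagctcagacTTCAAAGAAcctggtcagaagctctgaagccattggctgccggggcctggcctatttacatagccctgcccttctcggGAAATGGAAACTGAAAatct
Gbp2, chr3:142620493-142620662, + strand: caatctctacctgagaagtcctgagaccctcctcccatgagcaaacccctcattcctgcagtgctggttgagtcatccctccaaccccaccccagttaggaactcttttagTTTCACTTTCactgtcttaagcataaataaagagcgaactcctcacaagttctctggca
Igtp, chr11:58199386-58199555, + strand: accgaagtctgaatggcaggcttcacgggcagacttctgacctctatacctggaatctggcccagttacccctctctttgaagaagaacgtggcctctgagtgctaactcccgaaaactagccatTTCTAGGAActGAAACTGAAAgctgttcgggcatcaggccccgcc
Irf1, chr11:53769844-53770013, + strand: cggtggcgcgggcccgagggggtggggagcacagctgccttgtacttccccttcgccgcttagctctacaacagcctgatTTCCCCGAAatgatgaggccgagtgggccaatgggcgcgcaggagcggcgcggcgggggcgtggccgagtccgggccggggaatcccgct

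The files held 97404 cells, of which 96911 were kept, with 6795 to 11679 cells and 42091895 to 71663962 UMIs per library. RNA of the targeted gene was not lost with the label KO and lay higher there in each compartment, without overlap. Gfi1 was counted at 11.8 and 17.96 CPM (counts of a gene scaled to a common library total) in splenic libraries labelled WT against 18.1 and 18.1 CPM with the label KO. It was at 16.5 and 17.6 against 28.9 and 19.2 CPM in thymic γδ T cells, and at 44.7 and 40.6 against 70.6 and 56.6 CPM in DN1-DN3 cells. Which part of the gene is deleted was not given, so 3′ counts need not show the deletion. Every direction below is therefore that of libraries labelled KO relative to libraries labelled WT. Other features also differed between libraries. Xist, from the inactive X chromosome of female cells, did not exceed 0.374 CPM in spleen and was at least 739 CPM in every thymic library. Organ and sex of the mice thus cannot be told apart in any comparison of spleen with thymus below. Ddx3y from the Y chromosome was at 28.0 and 26.0 CPM in DN1-DN3 libraries labelled WT, against 11.6 and 14.2 CPM with the label KO. Sex may thus go partly with the label in DN1-DN3 cells. As thymic γδ T cells came from the same mice, it may do so there too. The part of sex in the comparisons that use thymic libraries was not tested. The summed CPM of 10 genes of interleukin-17-producing γδ T cells (γδT17 markers) was 868 to 894 with the label WT and 8604 to 9031 with the label KO in spleen. In thymic γδ T cells it was 1049 to 1234 and 6204 to 7229, and in DN1-DN3 cells 164 to 169 and 934 to 1715. Libraries labelled WT and KO of the same pool shared no cell barcode.

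Interferon-stimulated transcripts took a smaller share of the RNA in splenic γδ T cells labelled KO and a larger share in thymic γδ T cells labelled KO. In spleen, the 41 members summed to 0.278% and 0.322% of all UMIs with the label WT, against 0.186% and 0.160% with the label KO. The means were 0.300% ± 0.0311 (SD, n = 2) and 0.173% ± 0.0184, a 1.73-fold lower share. Thymic γδ T cells gave a share of 0.206% and 0.219% with the label WT, against 0.302% and 0.314% with the label KO, 1.45-fold higher. DN1-DN3 libraries labelled WT gave 0.185% and 0.191%, and those labelled KO 0.269% and 0.207%, 1.27-fold higher with an SD of 0.0441 percentage points. The WT and KO values did not overlap in any compartment, but the 2 DN1-DN3 libraries labelled KO were farther apart than the difference between the lower of them and those labelled WT. The exact two-sided permutation p was 0.33 in each compartment, the smallest that 2 libraries against 2 can give. Ly6e and Ifi203 had the most UMIs. Without them the share was 2.22-fold lower in spleen, 1.29-fold higher in thymic γδ T cells and 1.47-fold higher in DN1-DN3 cells.

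The same directions were seen cell by cell. A share of cells depends on depth, so each cell was thinned at random to 2000 UMIs, leaving out 123 to 1190 shallower cells per library. Of splenic cells labelled WT, 74.1% and 80.9% then held at least 3 members, against 48.7% and 47.3% of those labelled KO. Thymic γδ T cells gave 54.5% and 58.1% with the label WT, against 69.8% and 72.7% with the label KO. DN1-DN3 cells gave 50.4% and 51.2% against 66.4% and 55.6%. Unthinned, nearly all cells passed this limit, with means of 92.9% and 90.8% in spleen, 89.8% and 92.6% in thymic γδ T cells and 85.5% and 87.6% in DN1-DN3 cells. The upper end of the splenic distribution moved with the label as well. Splenic cells with at least 5 members went from a mean of 41.5% ± 6.10 (SD, n = 2) to 11.2% ± 1.21 and cells with at least 8 members from 11.6% ± 2.74 to 1.05% ± 0.369. In thymic γδ T cells the share with at least 8 members was 8.96% ± 1.61 and 9.61% ± 0.106, with overlapping libraries, while cells with no member went from 6.70% and 5.15% to 2.21% and 1.30%. The exact permutation p was 0.33 for the thinned shares at 3 and 5 members in each compartment, and 1.0 at 8 members in thymic γδ T cells.

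**Figure D1:**
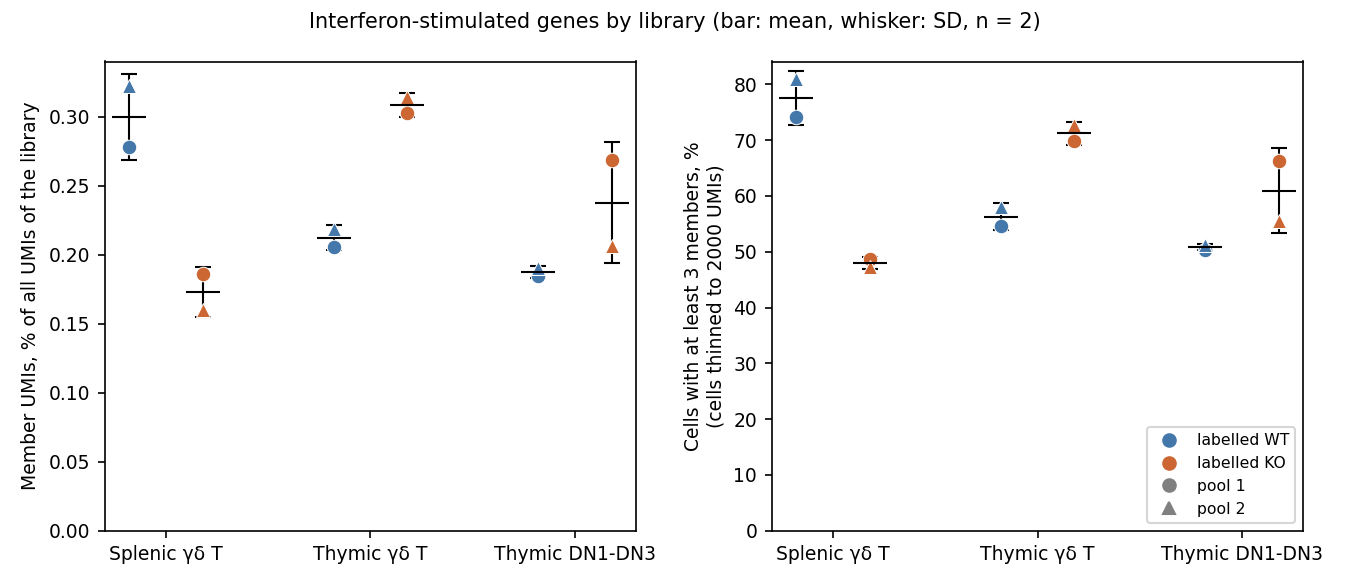
Share of all UMIs taken by the 41 members (left, in %) and share of cells, thinned to 2000 UMIs, with at least 3 members detected (right, in %), for each library; blue points are labelled WT, orange points labelled KO, circles pool 1 and triangles pool 2, with the mean and SD (n = 2) in black. The splenic libraries labelled KO lie at 0.186% and 0.160%, below both labelled WT, and the thymic γδ T libraries labelled KO at 0.302% and 0.314%, above both labelled WT.

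**Figure D2:**
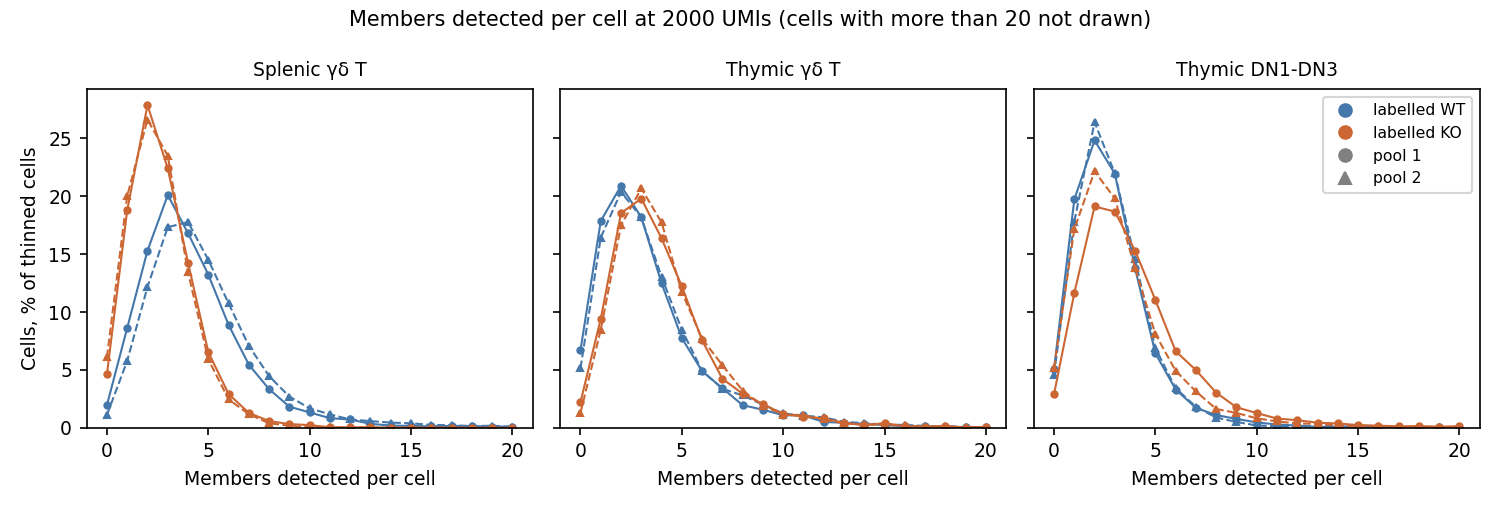
Percentage of thinned cells (y axis) by the number of members detected per cell (x axis, 0 to 20) in each library; solid lines with circles are pool 1, dashed lines with triangles pool 2, blue is labelled WT and orange labelled KO. The splenic curves labelled KO lie to the left of those labelled WT, with a median of 2 members per cell against 4.

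Gene by gene, most members moved with the genotype label, mainly down in spleen and up in thymus. All 41 passed the filter on low counts. In splenic γδ T cells 32 members were lower and 2 higher with the label KO at an adjusted p below 0.05, out of 14914 genes tested, of which 26.1% were lower and 28.6% higher (54.8% in all). The median log2 difference was −1.69 over the members and 0.00 over all genes. In thymic γδ T cells 20 members were higher and 3 lower, where 26.1% of all genes were higher and 23.7% lower (49.8% in all), and the median was 0.53 against −0.00. In DN1-DN3 cells 27 members were higher and 0 lower, where 15.2% of all genes were higher and 7.72% lower (23.0% in all), and the median was 0.75 against −0.02. DESeq2 also called no member lower in DN1-DN3 cells, and by edgeR 29 members there had an unadjusted p below 0.05 in either direction. The share of all genes at that unadjusted limit was not counted. By CPM, both splenic libraries labelled KO lay below both labelled WT for 34 members and above for 2, against 43.0% and 34.8% of all genes tested. The thymic γδ T libraries labelled KO lay above for 27 and below for 4, against 32.5% and 48.3%, and in DN1-DN3 cells above for 30 and below for 0, against 27.8% and 31.0%. The DN1-DN3 count moved with single libraries: it fell without WT replicate 1, WT replicate 2 or KO replicate 1, and rose without KO replicate 2. Such fits leave 1 library in a group, and the share of all genes called in them was not set beside this. A loss among the members thus cannot be told from a loss of calls over all genes. The difference in summed share was 0.0190 to 0.0813 percentage points with 1 library left out. A fit of the 4 DN1-DN3 libraries alone called 15 members, with the same limit. In the other comparisons of whole compartments with the labels, leaving out a library gave 31 to 33 called members in spleen and 17 to 21 in thymic γδ T cells.

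**Figure D3:**
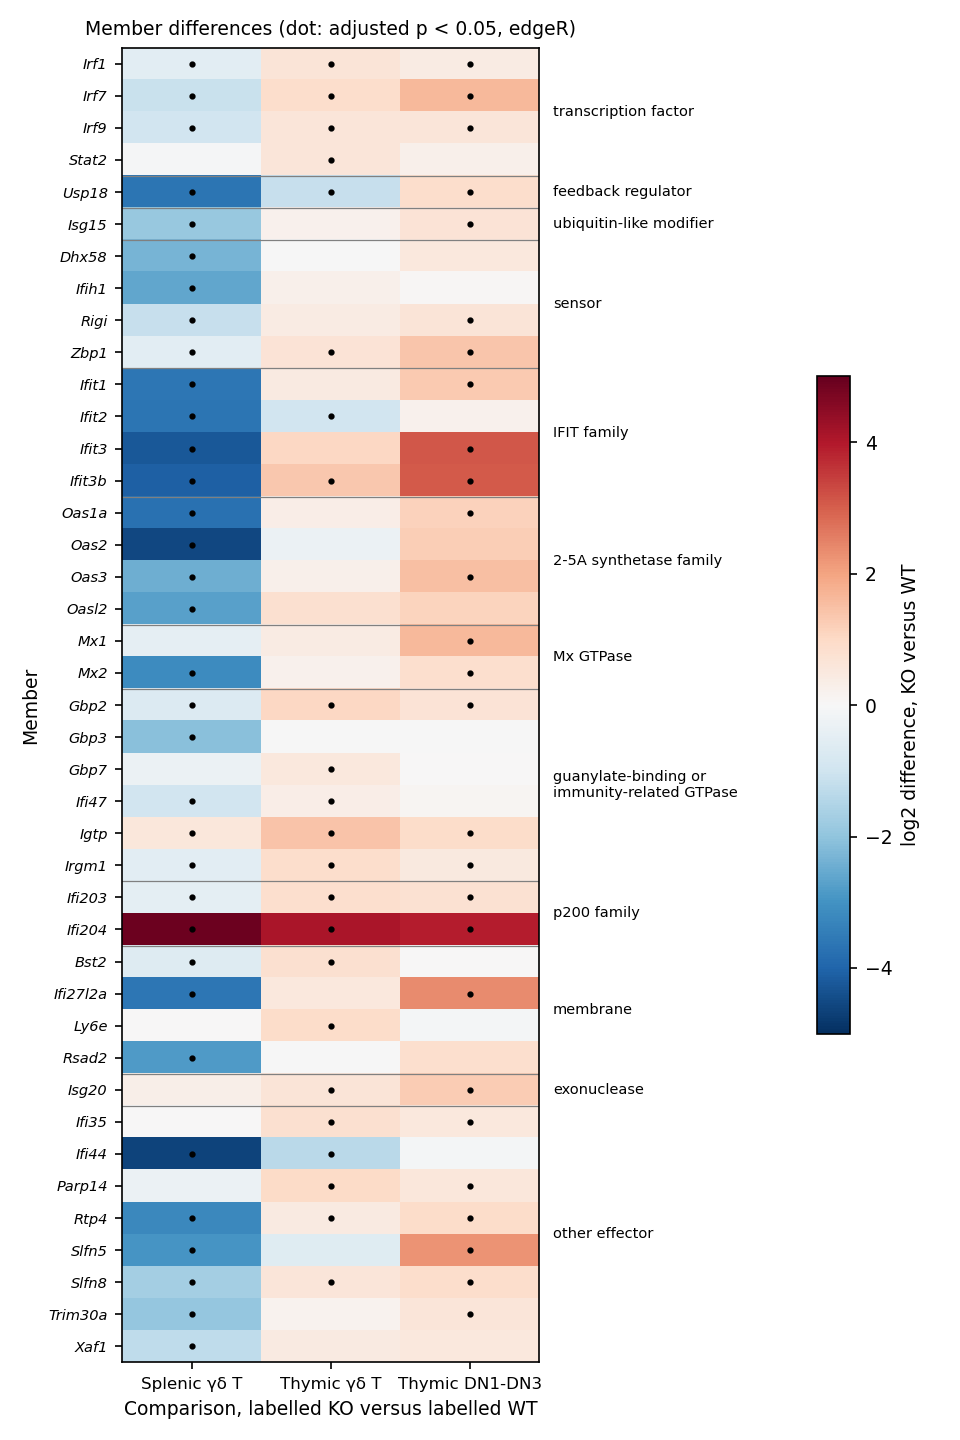
Log2 difference between libraries labelled KO and WT (colour, from −5 in blue to 5 in red) for each of the 41 members (rows, grouped by role) in the 3 compartments (columns); a black dot marks an edgeR adjusted p below 0.05. Most of the splenic column is blue and most of both thymic columns red, Ifi204 is red in every column, and Usp18, Ifit2 and Ifi44 are blue with a dot in spleen and thymic γδ T cells.

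Of the 41 members, 10 were lower in spleen and higher in both thymic compartments: Ifit3b, Ifi203, Irf1, Irf7, Irf9, Rtp4, Zbp1, Gbp2, Irgm1 and Slfn8. Of all 14914 genes tested, 0.905% had these calls. Another 10 were lower in spleen, not called in thymic γδ T cells and higher in DN1-DN3 cells (1.78% of all genes), among them Isg15, Ifit1, Ifi27l2a and Trim30a. Ifih1, Oas2, Oasl2, Rsad2, Xaf1, Gbp3 and Dhx58 were lower in spleen and called nowhere else (8.88% of all genes). The genes Ifi204 and Igtp were called higher in all 3 compartments, as 6.48% of all genes were, but the splenic call of Igtp was lost whichever of the 4 splenic libraries was left out. Isg20, Ifi35 and Parp14 were higher in both thymic compartments and not called in spleen (2.18% of all genes), while Stat2, Gbp7 and Ly6e were higher in thymic γδ T cells only (4.91%) and Mx1 in DN1-DN3 cells only (1.98%). Calls in 1 compartment and not in another do not show a difference between them, which is tested below.

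Of the transcription factors, 3 of 4 fell in spleen and all 4 rose in thymic γδ T cells, where 26.1% of all genes were lower and 26.1% higher, respectively. Irf7, which amplifies type I interferon production, was at 18.8 and 28.2 CPM in splenic libraries labelled WT against 11.2 and 9.395 CPM with the label KO, log2 −1.10 (SE 0.21, edgeR adjusted p = 0.00167). Thymic γδ T cells held it at 15.3 and 14.1 CPM with the label WT, against 25.8 and 23.8 CPM with the label KO (log2 difference 0.87, SE 0.21, edgeR adjusted p = 0.00655). In DN1-DN3 cells it rose from 4.37 and 3.96 CPM to 15.7 and 9.88 CPM, by log2 1.60 (SE 0.22, edgeR adjusted p = 0.000903). The order of the labels was thus reversed between spleen and both thymic compartments, without overlap. Irf1, a factor that interferon γ induces through a GAS, went from 136 and 164 to 98.4 and 95.6 CPM in spleen (−0.53, SE 0.11, edgeR adjusted p = 0.00191). It went from 66.2 and 68.7 to 97.0 and 97.1 CPM in thymic γδ T cells (log2 0.65, SE 0.11, edgeR adjusted p = 0.000678), and from 47.4 and 46.9 to 71.1 and 56.3 CPM in DN1-DN3 cells (log2 0.43, SE 0.11, edgeR adjusted p = 0.0182). Irf9, a DNA-binding part of the complex that binds the ISRE, had log2 differences of −0.97 in spleen and 0.59 in both thymic compartments, all called. Stat2, which completes that complex, was called in thymic γδ T cells (log2 0.62, edgeR adjusted p = 0.00567) and had −0.05 in spleen with overlapping libraries.

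Usp18, a protease that removes ISG15 from proteins and damps signalling at IFNAR2, was among the genes with the largest fall in spleen. It was counted at 27.5 and 39.6 CPM in splenic libraries labelled WT against 2.52 and 2.503 CPM with the label KO, 13.4-fold lower (log2 difference −3.65, SE 0.27, edgeR adjusted p = 2.88e-06). Unlike most members it also fell in thymic γδ T cells, from 49.95 and 50.5 CPM to 23.3 and 17.9 CPM (−1.17, SE 0.23, edgeR adjusted p = 0.00209). In DN1-DN3 cells it rose from 10.1 and 12.1 to 26.0 and 15.1 CPM (log2 0.87, SE 0.23, edgeR adjusted p = 0.0251). Isg15, the ubiquitin-like protein that is joined to other proteins after interferon, was at 39.4 and 58.7 CPM in splenic libraries labelled WT against 12.5 and 12.1 CPM with the label KO, 3.99-fold lower (−1.90, SE 0.17, edgeR adjusted p = 8.35e-06). Its thymic γδ T libraries overlapped, at 65.6 and 71.5 against 77.5 and 70.2 CPM, and the log2 difference of 0.23 (SE 0.16, edgeR adjusted p = 0.261) was not called. In DN1-DN3 cells it rose from 42.9 and 47.2 to 79.4 and 66.6 CPM (log2 0.69, SE 0.16, edgeR adjusted p = 0.0123).

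All 4 sensors of foreign nucleic acid fell in spleen, against 26.1% of all genes. Rigi, the gene for the RNA helicase RIG-I, was at 93.9 and 109 CPM with the label WT, against 40.5 and 44.1 CPM with the label KO, 2.40-fold lower (log2 −1.17, SE 0.17, edgeR adjusted p = 0.000289). Ifih1, which encodes the related sensor MDA5, fell 6.53-fold, from 21.3 and 22.4 to 3.503 and 3.18 CPM (log2 −2.62, SE 0.14, edgeR adjusted p = 3.53e-07). Dhx58, for LGP2, and Zbp1, a sensor of Z-form nucleic acid, had log2 differences of −2.32 and −0.53 and were both called. In the thymus they parted: Zbp1 rose in both compartments, by 0.69 and 1.37 on the log2 scale, and went from 11.0 and 12.9 CPM to 36.1 and 26.1 CPM in DN1-DN3 cells. Rigi was called in DN1-DN3 cells (log2 0.66, SE 0.17, edgeR adjusted p = 0.0216) and missed the threshold in thymic γδ T cells (log2 0.43, edgeR adjusted p = 0.0632). The differences of Ifih1 in the thymus were 0.25 and 0.06, with overlapping libraries.

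The IFIT genes, whose proteins bind viral RNA and block its translation, and the 2-5A synthetases, which activate the RNA-degrading enzyme RNase L, fell as families in spleen. All 4 IFIT and all 4 synthetase genes were lower, against 26.1% of all genes, with median log2 differences of −3.88 and −3.24. Ifit3 was at 17.7 and 32.6 CPM in splenic libraries labelled WT against 0.748 and 1.68 CPM with the label KO, 20.7-fold lower (log2 −4.24, SE 0.56, edgeR adjusted p = 0.000148). It was at 8.72 and 12.4 against 27.4 and 12.7 CPM in thymic γδ T cells (log2 1.03, SE 0.47, edgeR adjusted p = 0.0982). In DN1-DN3 cells it rose 8.76-fold, from 2.28 and 3.21 to 33.5 and 14.6 CPM (log2 3.10, SE 0.52, edgeR adjusted p = 0.00243). Ifit3b, a near copy of Ifit3 between which reads can be split or lost, followed it in direction, from 5.16 and 9.79 to 0.470 and 0.360 CPM in spleen and from 0.663 and 1.14 to 11.0 and 4.57 CPM in DN1-DN3 cells, and was called in all 3 compartments (log2 −4.10, 1.36 and 3.07). Ifit1 went from 20.9 and 32.3 to 1.79 and 2.29 CPM in spleen and from 6.15 and 8.52 to 24.03 and 12.96 CPM in DN1-DN3 cells, with log2 differences of −3.60 and 1.31. Ifit2 fell in both γδ T compartments. It fell in spleen from 24.3 and 25.6 to 1.99 and 1.74 CPM (log2 −3.65, SE 0.30, edgeR adjusted p = 6.46e-06) and in thymic γδ T cells from 13.01 and 14.9 to 8.48 and 4.72 CPM (log2 −0.97, SE 0.27, edgeR adjusted p = 0.0136).

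Among the synthetases, Oas1a went from 6.25 and 9.74 to 0.320 and 0.763 CPM in spleen, 14.8-fold lower (log2 −3.74, SE 0.42, edgeR adjusted p = 4.38e-05), and from 3.25 and 2.01 to 7.69 and 4.18 CPM in DN1-DN3 cells (log2 1.16, SE 0.36, edgeR adjusted p = 0.0423). Oas3 fell 5.71-fold in spleen and rose 2.84-fold in DN1-DN3 cells. Oas2 and the synthetase-like Oasl2 had log2 differences of −4.55 and −2.73 in spleen and were not called in the thymus, where none of the 4 was called in γδ T cells. Oasl2 varied between libraries of the same label, with 32.6 and 8.46 CPM in the DN1-DN3 libraries labelled KO against 9.30 and 9.42 CPM with the label WT. The Mx GTPases differed from each other. Mx2 fell in spleen from 3.37 and 5.28 to 0.470 and 0.446 CPM, while Mx1 had overlapping libraries there (log2 −0.44, SE 0.41, edgeR adjusted p = 0.379). In DN1-DN3 cells Mx2 rose by 0.83 and Mx1 by 1.63 on the log2 scale.

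The GTPases of the guanylate-binding and immunity-related families, which act on vacuoles that hold microbes and are classic targets of interferon γ, were called higher in 5 of 6 cases in thymic γδ T cells and lower in 4 of 6 in spleen, each against 26.1% of all genes. Igtp was called higher in each compartment. It was at 47.6 and 55.8 against 72.5 and 72.6 CPM in spleen (log2 0.58, SE 0.19, edgeR adjusted p = 0.0252), at 24.6 and 26.7 against 59.1 and 68.8 CPM in thymic γδ T cells (log2 1.44, SE 0.19, edgeR adjusted p = 0.000204), and at 18.2 and 18.01 against 44.3 and 25.4 CPM in DN1-DN3 cells (log2 0.93, SE 0.19, edgeR adjusted p = 0.00769). Without 1 splenic library its edgeR adjusted p there was 0.0558 to 0.156, and in Trgv6-called splenic cells, described below, its log2 difference was 0.16 (edgeR adjusted p = 0.561). Gbp2 fell in spleen from 44.0 and 45.5 to 25.7 and 25.7 CPM and rose in thymic γδ T cells from 16.6 and 18.3 to 30.3 and 35.6 CPM, with log2 differences of −0.70 and 1.04. Irgm1 had −0.52, 0.88 and 0.50 in spleen, thymic γδ T cells and DN1-DN3 cells, all called. Ifi47 fell in spleen from 145 and 165 to 77.6 and 72.6 CPM (log2 −0.95, SE 0.11, edgeR adjusted p = 6.53e-05) and rose in thymic γδ T cells from 86.1 and 89.3 to 94.4 and 106 CPM (log2 0.32, SE 0.11, edgeR adjusted p = 0.0413). Gbp7 was not called in spleen at −0.30 (edgeR adjusted p = 0.0522), although both its libraries labelled KO, at 67.2 and 72.3 CPM, lay below the 86.1 and 97.4 CPM with the label WT. It rose in thymic γδ T cells from 52.2 and 54.5 to 71.0 and 70.8 CPM. Gbp3 was called in spleen, with a log2 difference of −2.10, and lay within 0.02 of 0 in both thymic compartments.

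The p200 family, nuclear proteins that bind DNA, held a member that departed from the rest in spleen. Ifi204 was nearly silent with the label WT, at 0.760 and 0.840 CPM in spleen, 0.424 and 0.684 CPM in thymic γδ T cells and 0.971 and 1.16 CPM in DN1-DN3 cells. With the label KO it was at 24.4 and 21.1 CPM, 11.4 and 6.30 CPM, and 20.4 and 12.3 CPM, which is 28.4-fold, 15.98-fold and 15.4-fold higher. The log2 differences were 4.91 (SE 0.35, edgeR adjusted p = 2.45e-06), 4.09 (SE 0.35, edgeR adjusted p = 1.57e-05) and 3.92 (SE 0.33, edgeR adjusted p = 5.99e-05). Thinned to 2000 UMIs, 0.0789% to 0.302% of cells labelled WT in the 3 compartments held an Ifi204 UMI against 1.41% to 3.77% of cells labelled KO. Ifi203, a neighbour in the same gene cluster, did not share this rise in spleen. It fell in spleen from 338 and 405 to 256 and 242 CPM (log2 −0.48, SE 0.17, edgeR adjusted p = 0.0330) and rose in thymic γδ T cells from 213 and 216 to 320 and 390 CPM (log2 0.86, SE 0.17, edgeR adjusted p = 0.00200). In DN1-DN3 cells it went from 91.9 and 80.2 to 175 and 116 CPM (log2 0.75, edgeR adjusted p = 0.0107). Genes of this family are similar in sequence, so their counts are uncertain to the extent that reads could not be placed.

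Of the membrane proteins, Ly6e, a surface protein that restricts the entry of some viruses, was called in thymic γδ T cells alone, where it rose from 584 and 606 to 969 and 1091 CPM (log2 0.92, SE 0.19, edgeR adjusted p = 0.00237). It was at 620 and 585 against 688 and 449 CPM in spleen and at 743 and 794 against 774 and 685 CPM in DN1-DN3 cells, with overlap in both. Bst2, or tetherin, which holds budding virus at the cell surface, fell in spleen from 118 and 137 to 79.9 and 70.9 CPM (log2 −0.66, SE 0.14, edgeR adjusted p = 0.00300). It rose in thymic γδ T cells from 98.7 and 119 to 163 and 182 CPM (log2 0.79, SE 0.14, edgeR adjusted p = 0.00117) and overlapped in DN1-DN3 cells, at 283 and 314 against 297 and 301.5 CPM. Ifi27l2a, a small membrane protein, moved in opposite directions in spleen and DN1-DN3 cells. It was at 159 and 226 against 13.9 and 15.5 CPM in spleen (13.04-fold lower, log2 −3.61, SE 0.32, edgeR adjusted p = 1.08e-05), and 14.0 and 19.1 against 94.6 and 79.2 CPM in DN1-DN3 cells (5.24-fold higher, log2 2.38, SE 0.31, edgeR adjusted p = 0.000604). In thymic γδ T cells its 2 libraries labelled KO, at 121 and 58.2 CPM, spanned those labelled WT, at 61.5 and 72.7 CPM. Rsad2, the antiviral enzyme viperin, was called in spleen (log2 −2.85, SE 0.44) and overlapped in both thymic compartments.

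Of 8 other effectors, 6 fell in spleen, against 26.1% of all genes. Trim30a, a ubiquitin ligase of the TRIM family, went from 155 and 185 to 41.7 and 41.9 CPM in spleen (log2 −1.93, SE 0.16, edgeR adjusted p = 4.80e-06), was at 116 and 124 against 128 and 122 CPM in thymic γδ T cells, and rose from 67.2 and 66.6 to 124 and 78.9 CPM in DN1-DN3 cells (log2 0.59, SE 0.15, edgeR adjusted p = 0.0201). Slfn8 and Slfn5, of the Schlafen family, fell 3.44-fold and 8.35-fold in spleen, Slfn8 from 74.3 and 88.4 to 23.6 and 23.7 CPM and Slfn5 from 105 and 123 to 12.3 and 14.9 CPM. Slfn8 then rose in thymic γδ T cells from 38.7 and 42.0 to 58.5 and 54.8 CPM, whereas Slfn5 went from 57.4 and 70.8 to 41.5 and 36.2 CPM without being called (log2 −0.60, edgeR adjusted p = 0.157). In DN1-DN3 cells Slfn5 rose from 5.16 and 6.04 to 39.4 and 14.2 CPM (log2 2.23, SE 0.36, edgeR adjusted p = 0.00195). Rtp4 fell 9.94-fold in spleen, from 46.1 and 62.4 to 5.06 and 5.86 CPM (log2 −3.22, SE 0.17, edgeR adjusted p = 4.13e-07). Ifi44 fell in spleen from 2.19 and 3.39 to 0.107 and 0.101 CPM and in thymic γδ T cells from 4.21 and 5.85 to 2.24 and 1.39 CPM (log2 −4.65 and −1.36). Parp14, an ADP-ribosyltransferase, went from 60.9 and 59.8 to 106 and 110 CPM in thymic γδ T cells (log2 0.97, SE 0.15, edgeR adjusted p = 0.000397) and was at 104 and 118 against 79.4 and 89.1 CPM in spleen (log2 −0.30, edgeR adjusted p = 0.105). Xaf1 was called in spleen alone, while Ifi35 and the exonuclease Isg20 were called higher in both thymic compartments.

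**Figure D4:**
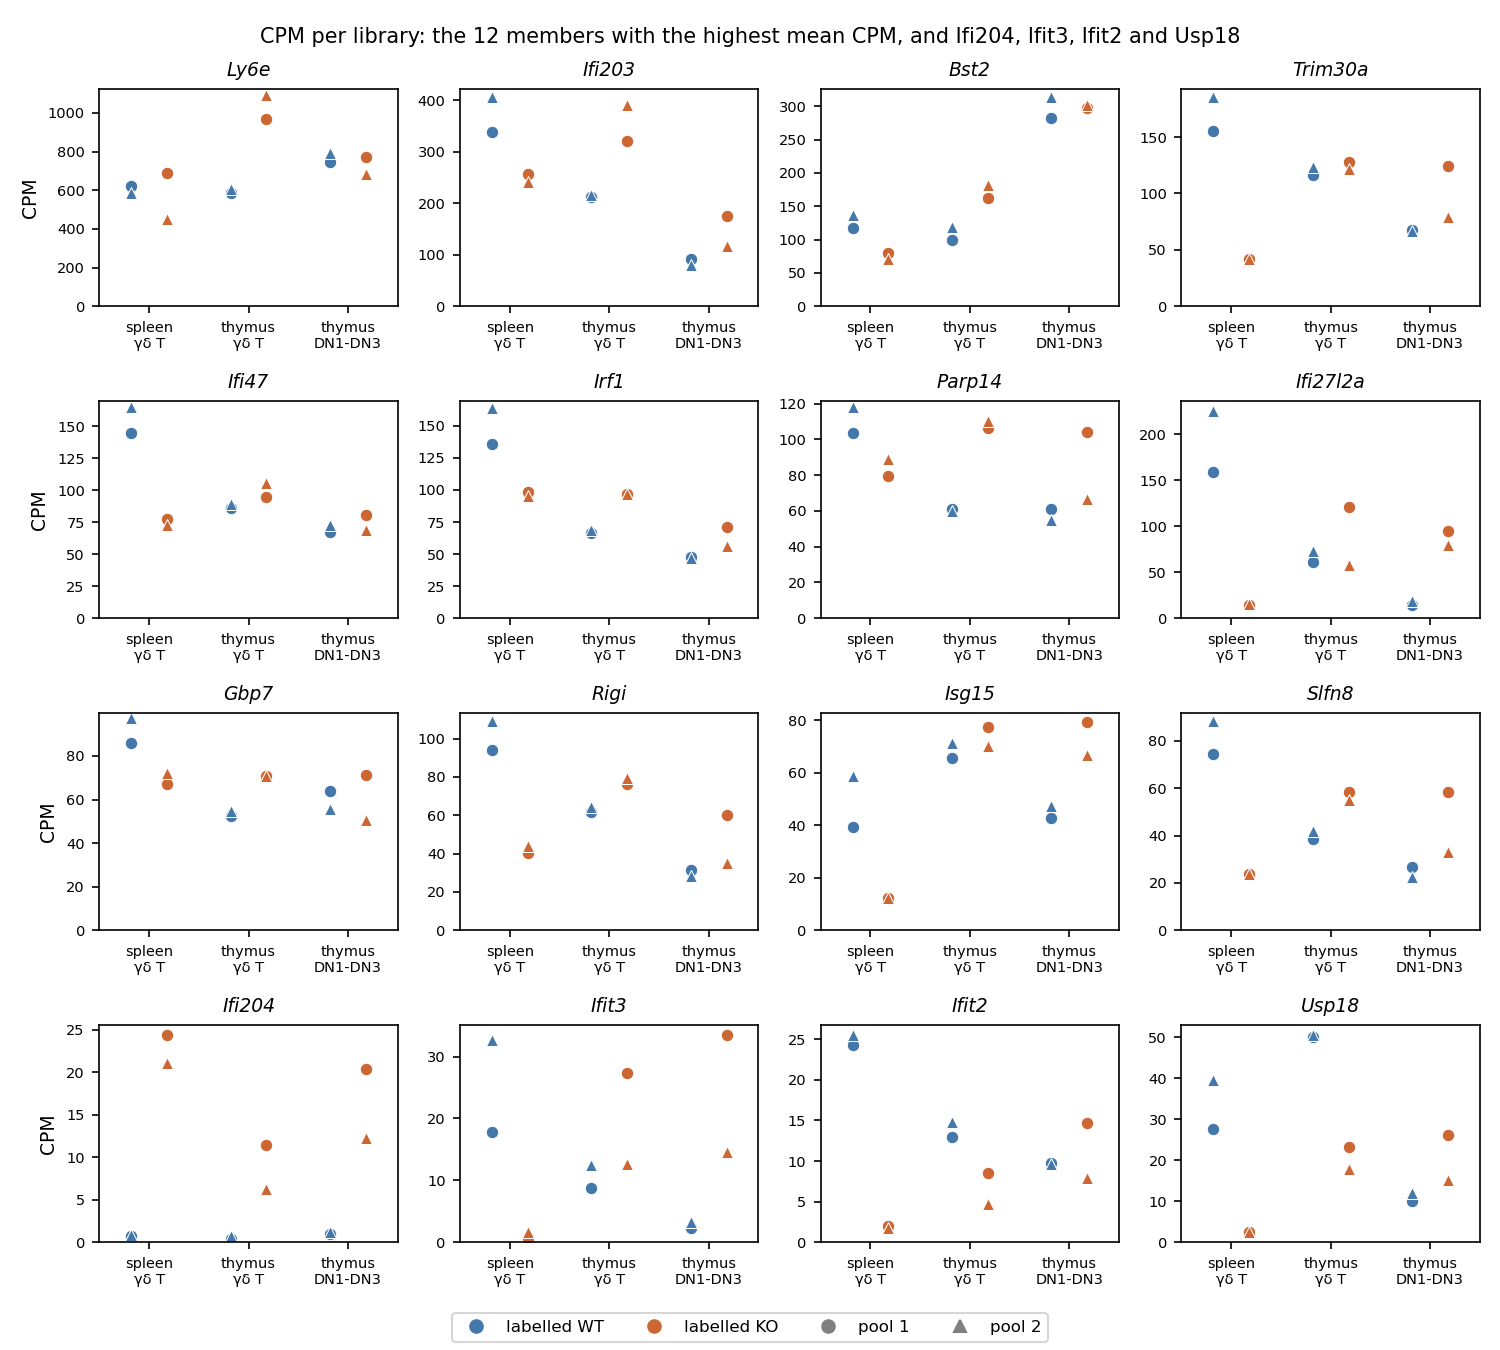
CPM (y axis, linear, from 0) per library for the 12 members with the highest mean CPM and for Ifi204, Ifit3, Ifit2 and Usp18, in the 3 compartments (x axis); blue is labelled WT, orange labelled KO, circles are pool 1 and triangles pool 2. In DN1-DN3 cells the circle labelled KO lies above the triangle for most of these genes, as for Ifit3 at 33.5 against 14.6 CPM.

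The splenic and thymic γδ T effects of the label were then compared with each other by an interaction term, which uses the libraries of both comparisons above. The splenic difference was below the thymic γδ T difference for 38 of 41 members, and above it for 0, at an adjusted p below 0.05, where 15.9% of all genes tested were below and 13.6% above (29.6% in all). The median over members was −2.10 on the log2 scale, against −0.05 over all genes. The 4 most negative were Ifit3b at −5.46 (SE 0.79), Ifit3 at −5.26 (SE 0.73), Oas2 at −4.26 (SE 0.76) and Ifi27l2a at −4.14 (SE 0.43). In spleen Oas2 was near the floor, at 1.71 and 2.59 CPM labelled WT against 0.0427 and 0.115 CPM labelled KO. The 3 members not called were Ifi204 (log2 0.83, edgeR adjusted p = 0.229), Isg20 (log2 −0.35, edgeR adjusted p = 0.351) and Mx1 (log2 −0.86, edgeR adjusted p = 0.296). DESeq2 and every other alternative tried called 34 or more of the 41 members. Sex goes with organ here, so the 2 cannot be told apart.

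Between the 2 thymic compartments 8 members were called, a share below that of all genes. The effect in γδ T cells was below that in DN1-DN3 cells for 6 members and above it for 2, where 13.0% and 8.83% of all genes were (21.9% in all). The lower ones included Slfn5 (log2 −2.83, SE 0.48, edgeR adjusted p = 0.00344), Usp18 (−2.03, SE 0.33, edgeR adjusted p = 0.00257), Ifi27l2a (−1.85, SE 0.42, edgeR adjusted p = 0.0123) and Ifi44 (−1.25, SE 0.40, edgeR adjusted p = 0.0483). The higher ones were Ly6e (log2 1.00, SE 0.26, edgeR adjusted p = 0.0230) and Bst2 (log2 0.79, SE 0.20, edgeR adjusted p = 0.0201). This count moved with single libraries, from 3 without thymic γδ T WT replicate 1 or KO replicate 2, through 4 without WT replicate 2 of either compartment and 5 without DN1-DN3 WT replicate 1, to 14 without DN1-DN3 KO replicate 2. The balance turned without DN1-DN3 KO replicate 1, with 7 members above and 4 below. The cells of both thymic compartments came from the same mice, while the fit takes all 12 libraries as independent.

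In libraries labelled WT the summed share of the members rose in the order DN1-DN3, thymic γδ T and splenic γδ T cells. Each compartment was run in its own pools, so compartment and 10x run cannot be told apart in this order. The summed share was 0.188% ± 0.00429 (SD, n = 2) in DN1-DN3 cells, 0.212% ± 0.00907 in thymic γδ T cells and 0.300% ± 0.0311 in splenic γδ T cells, and neighbours in this order did not overlap. Thymic γδ T cells exceeded DN1-DN3 cells in 26 members and were lower in 3, namely Bst2, Ifi44 and Ifih1, where 24.3% of all genes were higher and 22.8% lower (47.2% in all). This count of 29 was 19 without thymic γδ T WT replicate 2. Slfn5 had the largest log2 difference among members, 3.53 (edgeR adjusted p = 5.80e-05), followed by Usp18 at 2.19 (edgeR adjusted p = 7.00e-05). Splenic exceeded thymic γδ T cells in 23 members and were lower in Isg20 and Ifi44, where 23.1% and 25.8% of all genes were (48.9% in all), and here too organ and sex cannot be told apart. Marker lists moved along this order as well. In thymic γδ T cells 10 of 10 γδT17 markers were higher than in DN1-DN3 cells. So were 4 of 6 NK cell and 4 of 6 αβ T cell markers. Of 10 DN precursor markers, 7 were lower and 1 higher in the same comparison. In splenic γδ T cells 5 of 6 NK cell markers were higher than in thymic γδ T cells. Their part was not tested. Both comparisons use libraries that also enter the comparisons with the label KO. In libraries labelled KO the order was another one, with thymic γδ T cells at 0.308% ± 0.00850, DN1-DN3 cells at 0.238% ± 0.0441 and splenic γδ T cells at 0.173% ± 0.0184.

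Libraries labelled KO also held the classes of cells in other proportions, which bulk sums cannot separate from a change within cells. Cells whose leading γ chain transcript was Trgv6 made up 2.40% and 2.05% of splenic cells labelled WT and 43.8% and 39.5% of those labelled KO. The comparison was therefore repeated within classes set by single transcripts. Trgv segments are similar in sequence, so these calls carry some error. Nor did a Trgv class hold the γδT17 state fixed: of the 10 γδT17 markers, 8 were higher with the label KO within the Trgv1-, Trgv2- and Trgv4-called splenic classes, with median log2 differences of 4.37, 3.77 and 3.56, and 7 were higher and 3 lower in Trgv6-called cells, with a median of 0.67. NK cell markers fell with the members, in 4 of 5 tested in Trgv2-called cells and 3 of 4 in each other class, and αβ T cell markers in 4 of 5 in Trgv1-, Trgv2- and Trgv6-called and 2 of 5 in Trgv4-called cells. Of the few myeloid markers tested, 2 of 2 were lower in Trgv1-, 2 of 3 in Trgv2-, 1 of 1 in Trgv4- and 1 of 1 in Trgv6-called cells. The part of these transcripts, or of cells that carry them, in the member differences was not tested. Among Trgv2-called splenic cells, 34 of 41 tested members were lower and 2 higher, where 28.3% and 29.3% of all genes were (57.6% in all), with a median log2 difference of −1.85. Trgv1-called cells gave 32 lower and 1 higher of 40 tested, against 18.4% and 20.6% of all genes (39.0% in all), with a median of −1.44. They held 1022882 and 1448488 UMIs with the label KO, against 3769862 and 5896688 with the label WT. The limit on scarce members given next for Trgv4-called cells thus holds here too, and this count is a description. Trgv4-called cells, at least 66 per library, gave 19 lower of 29 tested, against 13.2% of all genes (27.9% in either direction). The classes labelled KO held 347714 and 400183 UMIs, against 1419197 and 1767894 with the label WT. A scarce member could thus pass the filter through the label WT alone, which favours a lower call. This count is therefore a description. The count was 11 without WT replicate 2, and 6 by DESeq2. Trgv6-called cells held more UMIs with the label KO, at 21567598 and 28551750 against 1174305 and 1405732, and there the filter favours a higher call. Among them 9 members were lower and 1 higher of 37 tested, against 6.80% and 5.20% of all genes, with a median of −0.45. The count was 6 without KO replicate 1 and 5 without KO replicate 2. The lower ones there were Ifi203, Ifi27l2a, Ifit2, Oas3, Rtp4, Slfn5, Trim30a, Usp18 and Zbp1. Isg15, for example, had a log2 difference of −2.11 in Trgv2-called cells (edgeR adjusted p = 0.00664) and −0.54 in Trgv6-called cells (edgeR adjusted p = 0.206). The difference between these classes was not tested, and the Trgv6-called class labelled WT held only 188 and 229 cells.

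Member shares were also taken by class. The member share of UMIs was 0.171% ± 0.0181 (SD, n = 2) in Trgv6-called, 0.175% ± 0.0236 in Trgv2-called, 0.176% ± 0.00812 in Trgv1-called and 0.196% ± 0.0287 in Trgv4-called splenic cells labelled KO. With the label WT it was 0.229% ± 0.0120, 0.306% ± 0.0302, 0.318% ± 0.0331 and 0.298% ± 0.0230. In the thymus, γδ T cells labelled KO were at 0.302% ± 0.0152 in the Trgv6-called class, 0.304% ± 0.00258 in the Trgv2-called, 0.345% ± 0.0102 in the Trgv1-called and 0.297% ± 0.0198 in the Trgv4-called class. With the label WT the last 3 were at 0.204% ± 0.00391, 0.209% ± 0.0244 and 0.236% ± 0.0212. Only 41 and 57 thymic Trgv6-called cells were labelled WT, too few for a comparison.

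Thymic γδ T cells were divided by Cd24a, which immature γδ thymocytes express. Cells with at least 2 Cd24a UMIs were 8.79% and 10.1% of those labelled WT and 2.35% and 1.51% of those labelled KO. Among cells labelled WT, 38 members were higher and 2 lower in cells without Cd24a than in Cd24a-detected cells, where 30.6% and 25.2% of all genes were (55.7% in all), and the median was 1.30. All 10 γδT17 and all 4 tested NK cell markers were higher in cells without Cd24a as well, and the depth differed, with a median of 15775 and 17008 UMIs in Cd24a-detected cells against 6118 and 6081 in cells without Cd24a. The part of these was not tested. With the label KO, cells without Cd24a had 17 members higher and 4 lower, against 28.6% and 26.6% of all genes (55.2% in all), and 13 were called without WT replicate 1. In the same class 9 of 10 γδT17 markers were higher, with a median log2 difference of 3.12, and 4 of 6 αβ T cell and 4 of 5 tested myeloid markers were lower, whose part was not tested. The 4 lower members were Slfn5, Usp18, Ifit2 and Ifi44. In Cd24a-detected cells 11 of 37 tested members were higher and 0 lower, against 5.54% and 2.99% of all genes (8.53% in all). By edgeR 23 had an unadjusted p below 0.05, a limit at which all genes were not counted. Only 1 was called without KO replicate 1, 6 without KO replicate 2 and 6 by DESeq2, but 19 with the pool as a block, 18 higher and 1 lower. Of 9 tested γδT17 markers 8 were higher in this class as well, with a median of 1.91. So were 2 of 2 tested B cell markers (median 0.62) and 1 of 2 NK cell markers, while 1 of 4 αβ T cell markers was lower. The part of these was not tested. The largest log2 difference of a member there was that of Ifi27l2a, at 1.70 (edgeR adjusted p = 0.000832).

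In DN1-DN3 libraries, cells with an Il2rb UMI, a transcript of mature and innate-like lymphocytes, were 3.996% and 3.80% of cells labelled WT and 27.2% and 14.6% of those labelled KO. Free RNA can give such a UMI: in cells with at least 2 UMIs of Ptcra, the pre-T cell receptor chain of DN3 cells, which should lack Il2rb, the share was 2.18% and 0.888% in libraries labelled WT, against 5.15% and 3.22% in those labelled KO, at a median of 6594 to 7410 UMIs. In cells with no Ptcra UMI, at a median of 4827 to 5433 UMIs, it was 5.59% and 6.20% against 35.2% and 24.0%. How many cells of the class hold only free Il2rb RNA was not tested. The member share of UMIs in Il2rb-detected cells was 0.238% and 0.243% with the label WT, against 0.354% and 0.318% with the label KO. Among them 20 of 41 members were higher and 0 lower, against 7.86% and 5.88% of all genes (13.7% in all), and all 41 log2 differences were above 0, with a median of 0.74. Those labelled KO held 12214014 and 7036516 UMIs, against 2151585 and 2004244 with the label WT. A scarce member could thus pass the filter through the label KO alone, which favours a higher call. The share of all genes above 0 was not counted. Leaving out either WT replicate, which leaves 1 library with that label, removed all or nearly all edgeR calls of members. The share of all genes called in those fits was not set beside this, so a loss over all genes cannot be told apart. DESeq2 on all libraries called 15 members. Of the 10 γδT17 markers 9 were higher in this class (median log2 difference 1.60), while 2 of 5 tested NK cell markers and 4 of 10 markers of DN precursors were lower, and 2 of the latter higher. Cells with Ptcra and no Il2rb had 11 members higher and 0 lower, against 8.95% and 4.56% of all genes (13.5% in all), with a median of 0.36, and 5 were called without WT replicate 2 and 25 without KO replicate 2. With the pool as a block 14 were higher and 3 lower, and without KO replicate 1 there were 10 higher and 1 lower. In this class 5 of 9 tested γδT17 markers and 2 of 5 tested B cell markers were higher, with medians of 2.498 and 2.63. Their share was 0.189% and 0.191% with the label WT, against 0.222% and 0.185% with the label KO, which overlapped. Ifi27l2a rose in these cells by a log2 difference of 1.29 (edgeR adjusted p = 0.00110) and Rtp4 by 0.79 (edgeR adjusted p = 0.000540). Members of the DN1-DN3 comparison thus moved together with the share of Il2rb-detected cells and with these markers, whose part in it was not tested further.

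**Figure D5:**
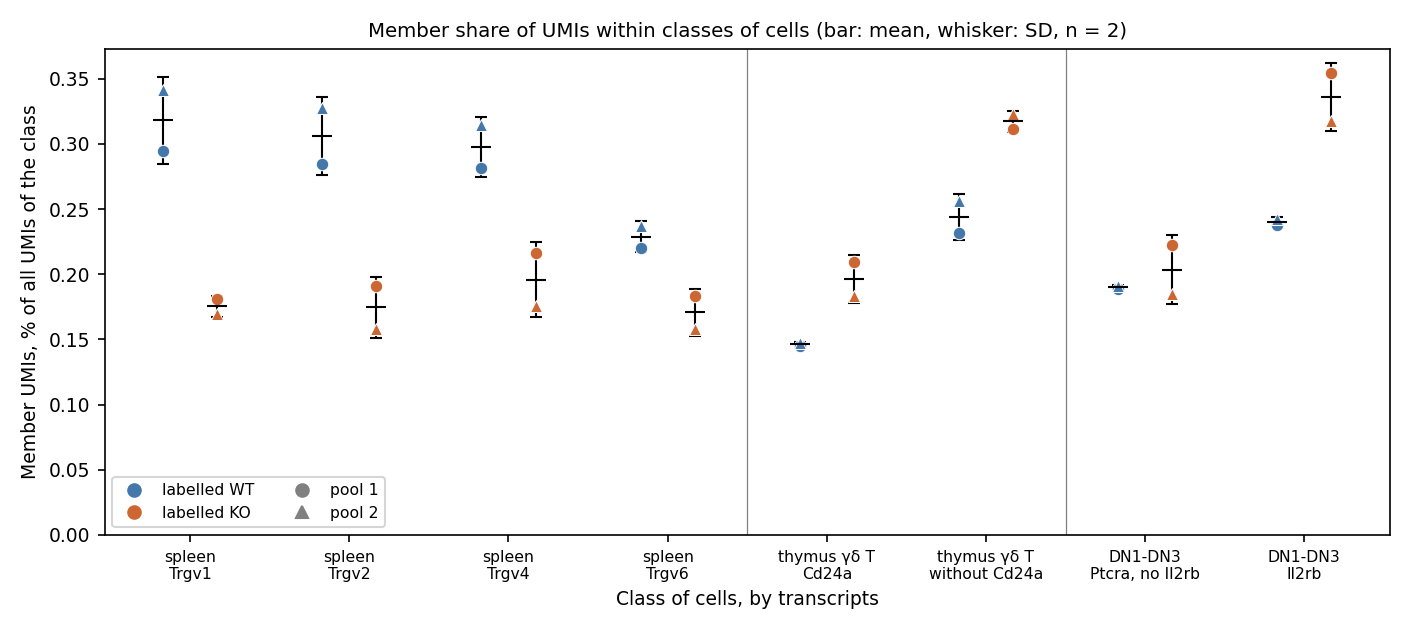
Member UMIs as a percentage of all UMIs (y axis) within classes of cells defined by single transcripts (x axis), for splenic γδ T cells by their leading Trgv gene, thymic γδ T cells by Cd24a and DN1-DN3 cells by Ptcra and Il2rb; blue is labelled WT, orange labelled KO, circles are pool 1 and triangles pool 2, with the mean and SD (n = 2) in black. All 4 splenic classes labelled KO lie below those labelled WT, by least in Trgv6-called cells, and Il2rb-detected DN1-DN3 cells labelled KO lie at 0.354% and 0.318%.

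Markers of other cell types were checked because such cells can carry interferon-stimulated RNA. The summed CPM of 6 B cell genes was 165 and 308 in DN1-DN3 libraries labelled WT, against 1740 and 3786 with the label KO. Of this the antibody chain gene Igkc was at 51.1 and 188 against 1606 and 3528 CPM, while Cd79a was at most 5.17 CPM in any library. In spleen the B cell sum was 1989 and 221 CPM with the label WT, against 396 and 72.4 CPM with the label KO. Myeloid genes (6 genes) summed to 38.9 to 43.6 CPM and 4.04 to 6.15 CPM in spleen, to 19.9 to 20.9 and 6.90 to 11.4 CPM in thymic γδ T cells, and to 18.8 to 22.4 and 38.4 to 42.1 CPM in DN1-DN3 cells. Siglech, which defines plasmacytoid dendritic cells, the main makers of type I interferon, was at most 0.210 CPM and at 0 in 5 libraries, although 6 genes of those cells that are no members, some of which T cells also express, summed to 323 to 1176 CPM. NK cell genes (6 genes) summed in spleen to 180 and 210 CPM with the label WT, against 47.2 and 45.2 CPM with the label KO, and genes of αβ T cells (6 genes) to 1745 and 1806 against 1031 and 993 CPM. In DN1-DN3 cells the NK cell sum rose with the members, from 10.5 and 8.33 to 42.9 and 22.6 CPM, with 4 of 6 genes called higher. In thymic γδ T cells the NK cell sum was at 35.6 and 28.6 against 45.4 and 39.2 CPM, with 1 of 6 genes called higher and 2 lower. The αβ T cell sum there was at 3175 and 3262 against 1531 and 1303 CPM, with 4 of 6 genes called lower. The part of these transcripts, or of cells that carry them, in the results was not tested beyond the following. Without cells that held at least 3 B cell markers, at least 3 myeloid markers or a Siglech UMI, an alternative added after seeing the data, 35 members were called in spleen, 22 in thymic γδ T cells, 27 in DN1-DN3 cells and 38 in the interaction of spleen and thymus. With all cells kept, 54.8%, 49.8%, 23.0% and 29.6% of all genes were called in these comparisons. The share of all genes without those cells, and the directions, were not set beside these counts.

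Interferon transcripts themselves were rarely counted. Of 14 interferon genes, 12 had 0 UMIs over the 12 libraries, Ifnb1 included, and a count of 0 allows up to 3 UMIs by counting error alone. Ifnk, a type I interferon of skin, had 88 UMIs in all and was called lower in spleen, from 0.404 and 0.185 to 0.0427 and 0.0144 CPM. Ifng, for interferon γ, had 947 UMIs. Ifng was at 3.49 and 4.35 against 3.59 and 0.647 CPM in spleen and was called in none of the 3 comparisons. The receptors did change. Ifnar1 was at 73.8 and 86.0 CPM in splenic libraries labelled WT against 30.8 and 31.8 CPM with the label KO (log2 −1.26, edgeR adjusted p = 3.92e-06), and Ifnar2 at 154 and 181 against 65.5 and 68.0 CPM (log2 −1.23, edgeR adjusted p = 2.69e-06). Both also fell in thymic γδ T cells, by log2 differences of −0.35 and −0.37, while Ifnar1 rose in DN1-DN3 cells by 0.41. Ifngr1 fell in spleen from 325 and 366 to 128 and 73.1 CPM, and its partner Ifngr2 rose in all 3 compartments, by 1.20, 0.84 and 0.95 on the log2 scale. Il10rb, shared by the type III interferon and interleukin-10 receptors, fell in spleen (log2 −1.65) and rose in DN1-DN3 cells (log2 1.40).

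Further along the pathway, 14 of 15 receptor, kinase, STAT and inhibitor genes were tested. Of these, 4 were higher and 9 lower in spleen, 7 higher and 3 lower in thymic γδ T cells, and 7 higher and 0 lower in DN1-DN3 cells, with median log2 differences of −0.80, 0.22 and 0.41. Of all genes, as above, 28.6% were higher and 26.1% lower in spleen, 26.1% and 23.7% in thymic γδ T cells, and 15.2% and 7.72% in DN1-DN3 cells, which also is the background for the lists that follow. Among the kinases, Jak1 fell in spleen (log2 −0.77) and rose in DN1-DN3 cells (log2 0.42), Jak2 fell in spleen (log2 −1.18), and Tyk2 rose in both thymic compartments (log2 0.51 and 0.52). The inhibitors did not move as a group. Socs1 rose in spleen and thymic γδ T cells, from 46.0 and 47.3 to 102 and 93.6 CPM and from 60.4 and 61.7 to 162 and 203 CPM, with log2 differences of 1.16 and 1.71. Socs3 fell in spleen from 30.9 and 36.7 to 3.65 and 3.37 CPM (log2 −3.18, edgeR adjusted p = 3.32e-07) and rose in thymic γδ T cells (log2 0.82). The phosphatase Ptpn6 rose in all 3 compartments (log2 0.91, 0.82 and 0.41), Ptpn2 in both γδ T compartments (log2 0.41 and 0.32), and Pias1 fell in spleen (log2 −0.44).

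Of 16 genes of nucleic acid sensing and of the IRF family outside the members, 15 were tested, with 4 higher and 5 lower in spleen, 9 higher and 1 lower in thymic γδ T cells and 9 higher and 0 lower in DN1-DN3 cells. The splenic counts were near the 28.6% and 26.1% of all genes. Of 78 other interferon-stimulated genes, 76 were tested. In spleen 42 were lower and 10 higher, against 26.1% and 28.6% of all genes, with a median of −0.47. The thymic γδ T cells had 47 higher and 5 lower, against 26.1% and 23.7%, with a median of 0.56, and in DN1-DN3 cells 41 were higher and 1 lower, against 15.2% and 7.72%, with a median of 0.52. The 4 with the largest change in spleen were Oasl1 (log2 −4.69), Slfn1 (−4.17), Ms4a4c (−4.13) and Ifit1bl1 (−4.10). Among thymic γδ T cells they were Ube2l6, the enzyme that carries ISG15 (log2 2.86), the chemokine Ccl5 (−2.08), Lgals3bp (log2 2.05) and Ifi213 (log2 1.80). In DN1-DN3 cells they were the chemokine Cxcl10 (log2 5.14, from 0.146 and 0.161 to 10.2 and 1.21 CPM), Samhd1, which depletes nucleotides (log2 3.23), Slfn1 (log2 3.14) and Phf11b (log2 2.995). The wider list thus held the same majority of calls in each compartment as the 41 members. It was chosen with earlier results of these data known, so it is no separate check on them.

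Members with and without ISRE letters in the promoter window were set side by side. Of the 20 with the letters, 17 were lower and 1 higher in spleen, with a median of −1.92, and of the 10 without, 8 were lower and 0 higher, with a median of −1.03, where 26.1% of all genes were lower and 28.6% higher. Among thymic γδ T cells 9 of the 20 were higher and 0 lower, and 6 of the 10 were higher and 2 lower, against 26.1% and 23.7% of all genes. In DN1-DN3 cells 14 of the 20 and 5 of the 10 were higher, against 15.2%. These counts were not tested against each other.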

How the data were processed

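Single-cell transcripts were counted in 12 libraries, and file names gave the genotype label of each. The deposited values are raw UMI counts per gene and cell, which the authors made with Cell Ranger 8.0.1 on genome build GRCm39 (per the submitters' processing notes) and split by hashtag. Following the study, cells under 500 UMIs, under 200 genes or over 20% mitochondrial UMIs were removed, and 9545 genes (ribosomal, mitochondrial or named Gm with a number) entered no test. No caller of doublets was run. Cells called by Trgv had 1 leading Trgv gene.

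UMI counts were summed per library and compared with edgeR 4.0.16 (R 4.3.3) by the two-sided quasi-likelihood F test with robust dispersions, TMM scaling and filterByExpr. Benjamini-Hochberg adjustment covered all genes of a test, with a threshold of 0.05. Whole compartments shared 1 fit of 12 libraries, and classes of cells used the 4 libraries of their compartment. Shares were compared by an exact two-sided permutation test of library values, coded in Python 3.11.15 with numpy 2.4.6. In simulated data of the splenic comparison (14914 genes), 82 genes were changed 1.5-fold, 59 were changed 2-fold and 59 were changed 4-fold. The fit recovered 28.0%, 67.8% and 91.5% of them. Far more genes were called in the real comparison (54.8%), so these shares need not hold there.

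The members, context lists and tests were chosen with earlier results of these data known. Genes named with values are the 12 members with the highest mean CPM, the 6 called members with the largest rise and fall of mean at least 5 CPM per comparison, the 4 most positive and negative of each interaction, the tested receptors, kinases, STATs and inhibitors (1 of them is not reported here), and the 4 other interferon-stimulated genes with the largest change. Further members were named after their values were seen. Libraries labelled WT and KO of a pool shared a 10x run, so pool numbers pair them. Deviations from the group means correlated within pools across genes at r = 0.29 in spleen, 0.175 in DN1-DN3 cells and 0.0629 in thymic γδ T cells. Alternatives were DESeq2 1.42.0, its size factors, no filter, all genes or barcodes kept, the pool as a block and each library left out. Near-identical families (Ifit, Oas, Mx, p200, Gbp, Slfn) carry uncertain counts. RefSeq promoters of GRCm38.p6 served for sequence only.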

Additional observations from a re-analysis of the deposited data

Results flagged for a closer look

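The results below were singled out because the effect of the genotype label differed between compartments. Splenic and thymic γδ T effects differed by the edgeR interaction test for 38 of 41 members. All were below, where 15.9% of all genes were below and 13.6% above (29.6% in all). The largest log2 differences were −5.46 for Ifit3b, −5.26 for Ifit3, −4.26 for Oas2, whose counts were near the floor, and −4.14 for Ifi27l2a.

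Between thymic γδ T cells and DN1-DN3 cells 8 members differed by the same kind of test, a share below the 21.9% of all genes that did. It is thus no result about the members as a set, and the count and its balance of directions moved with single libraries. Slfn5 had −2.83, Usp18 −2.03, Ifi27l2a −1.85 and Ifi44 −1.25 on the log2 scale, while Ly6e had 1.00 and Bst2 0.79.

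The summed share of UMIs moved in opposite directions in every pool, by −0.127 percentage points in spleen and 0.0961 in thymic γδ T cells. The share of cells with at least 3 members likewise moved by −29.5 percentage points in spleen and 15.0 in thymic γδ T cells. For both shares the difference between the compartments was not tested.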

How the results depend on the processing

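Over 213 values of the main results under alternative settings, 174 had a count within 1.5 times or a share within 1 SD, 39 moved further, and no share changed sign. Counts of members in this section stand without the share of all genes called in the same fits. They cannot tell a loss among the members from a loss of calls over all genes. The balance of calls turned in the thymic interaction without DN1-DN3 KO replicate 1, with 7 above and 4 below. Leaving out 1 library gave 31 to 33 called members in spleen, 17 to 21 in thymic γδ T cells, 11 to 31 in DN1-DN3 cells, 34 to 37 and 3 to 14 in the splenic and thymic interactions, 17 to 23 and 19 to 25 between compartments labelled WT, 5 to 13 in Trgv6-called, 23 to 32 in Trgv1-called, 33 to 37 in Trgv2-called and 11 to 18 in Trgv4-called cells. It gave 1 to 14 in Cd24a-detected cells, 13 to 25 without Cd24a, 5 to 25 in Ptcra-detected and 0 to 29 in Il2rb-detected cells. The summed share then moved between −0.149 and −0.105 percentage points in spleen, 0.0897 and 0.102 in thymic γδ T cells and 0.0190 and 0.0813 in DN1-DN3 cells, and the share of cells between −32.9 and −26.1, 13.2 and 16.7, and 4.73 and 15.5.

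A fit of the 4 DN1-DN3 libraries alone called 15 members. DESeq2 called 6 in Trgv4-called and 6 in Cd24a-detected cells, and no filter on low counts gave 18 in the latter. With the pool as a replicate block, 19 members were called in Cd24a-detected and 17 in Ptcra-detected cells, 1 and 3 of them lower, and no other count of members moved by over 1.5 times. Within pools the summed splenic share differed by −0.0920 in pool 1 and −0.162 in pool 2, and that of DN1-DN3 cells by 0.0843 and 0.0159. Relative to UMIs without ribosomal, Gm-number and mitochondrial genes it differed by −0.193 in spleen and 0.128 in thymic γδ T cells, and without Ly6e and Ifi203 by 0.0385 in the latter. The share of cells differed by −24.4 and 10.3 at 1000 UMIs, by −2.08, 2.80 and 2.16 unthinned in spleen, thymic γδ T cells and DN1-DN3 cells, by −16.0 and 12.4 at 2 members, and by 8.64 at 5 members in thymic γδ T cells. The cause was not tested where the construction of the alternative does not give it. With 2 libraries a group, the exact test cannot go below 0.33, and the number of mice behind each library limits all p-values.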
